A study of Mus musculus with 8 samples.

Results

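The genes described here encode proteins of the cytosolic ribosome. They were taken by name: every gene whose single annotated symbol is Rpl, Rps or Rplp followed by a number and at most 1 letter, so that kinases of ribosomal protein S6 and mitochondrial ribosomal proteins stayed out. This gave 44 of the 12393 genes measured, 24 of the large and 20 of the small ribosomal subunit, each represented by its brightest probe set (a group of short probes that reports on 1 transcript). No measured level entered the choice of genes. A further 27 symbols of the same form, Rpl3, Rpl5, Rpl10 and Rplp1 among them, lay only on probe sets that list several symbols and were not analysed here.

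Expression was measured on Affymetrix arrays in mouse bone marrow cells lacking lineage markers and carrying Sca1 and Kit (LSK), a fraction enriched for blood stem and multipotent progenitor cells. The labels give strain C57/BL6 and an age of 12 weeks for every sample. The normal group, labelled WT HSC, held 3 arrays of LSK cells with no transplantation named. The leukaemic groups were GFP-positive LSK cells, the leukaemia-initiating cells (LICs) of a retroviral model of chronic myeloid leukaemia (CML), taken 14 days after marrow transplantation: 3 arrays of WT CML LICs and 2 of Ezh2 KO CML LICs. Ezh2 is the histone H3 methyltransferase of Polycomb repressive complex 2. What drives the deletion, whether animals were pooled and which oncogene the retrovirus carried are not stated by the labels. LICs differ from LSK cells by transplantation, infection and leukaemia together, and also in Xist and Y-linked transcripts (values below), and these cannot be told apart. In sorted bulk samples, fewer cells of a type and less RNA per cell cannot be told apart either. The repeats are labelled biological, but nothing says that they were separate animals, so the spread between these samples may be partly technical. The p-values rest on that spread and on a prior, a spread borrowed from all genes (SD 0.24). For the brightest members the prior sets most of the error.

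Ribosomal proteins are made in nearly equal numbers, since each ribosome carries a single copy of most of them, and their mRNAs are among the most abundant in dividing cells. Many of these mRNAs begin with a C followed by a run of pyrimidines, the terminal oligopyrimidine (TOP) motif, through which mTOR signalling adjusts their translation rather than their amount. In blood, loss of single ribosomal protein genes has well-known effects: RPS19 is the gene most often mutated in Diamond-Blackfan anaemia, RPS14 lies in the region lost in 5q- syndrome, and free RPL11 binds MDM2, the inhibitor of p53. A few members have paralogs of narrower or different use, among them Rps27l beside Rps27, Rpl39l beside Rpl39 and Rpl3l, a striated muscle form of Rpl3.

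The start regions of 6 members, all named again below, show where the letters CTTTC were and were not found. Each sequence runs 5′ to 3′ on the gene's own strand from 30 bases before to 15 bases after the annotated start (RefSeq, GRCm38.p6), and capitals mark each CTTTC, a C with pyrimidines after it. The capitals mark this string wherever it lies, and among these 6 members only that of Rplp2 begins at the annotated start. There the string would be 1 form of the TOP motif. It misses other forms: Rps6 has no CTTTC here, yet its sequence just after the start is a C with a run of pyrimidines.
Rplp2: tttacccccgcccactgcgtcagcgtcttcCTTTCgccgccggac
Rpl35: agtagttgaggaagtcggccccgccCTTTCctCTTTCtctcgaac
Rpl12: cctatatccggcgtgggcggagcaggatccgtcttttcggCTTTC
Rps27: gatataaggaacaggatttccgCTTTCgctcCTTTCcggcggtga
Rps27l: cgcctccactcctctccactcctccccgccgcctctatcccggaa
Rps6: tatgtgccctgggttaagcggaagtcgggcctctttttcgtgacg
They lie at chr7:141447621-141447665 (+) for Rplp2, chr2:39005117-39005161 (-) for Rpl35, chr2:32961682-32961726 (+) for Rpl12, chr3:90213634-90213678 (-) for Rps27, chr9:66946056-66946100 (+) for Rps27l, for which a second start is annotated, and chr4:86857353-86857397 (-) for Rps6. CTTTC on the sense strand within 20 bases of the start was present in 12 of the 38 members with a promoter entry (31.6%) and in 6.44% of all 27025 genes with one; on either strand the shares were 34.2% and 11.8%. CCGGAAG, the core bound by ETS factors such as GABPA, was present on either strand of the 300-base promoter in 19 of the 38 members and in 9.93% of all genes. The YY1 core AAGATGGC was in 7.89% of members and 3.19% of genes, and the E-box CACGTG, to which MYC binds, in 4 of 38 members and 8.09% of genes. These are matches of letters anywhere in their windows. They say nothing about binding, and the shares with CTTTC are not shares of mRNAs that begin with a TOP motif. Members with and without CTTTC differed little in their median log2 difference between WT LICs and LSK cells, at -0.02 (12 members) and -0.04 (26 members).

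The libraries differed in ways that bear on all comparisons. Ezh2 was at 10.77 to 11.07 (log2) in LSK cells, 11.26 to 11.44 in WT LICs and 8.94 and 9.55 in Ezh2 KO LICs; whether its probe set lies in the deleted part is not known, so this does not check the deletion. The LSK arrays had high Xist (12.45 to 12.69) and low Y-linked Eif2s3y (1.29 to 1.63), while all LIC arrays had Eif2s3y at 9.21 to 9.80. WT LIC replicate 3 stood apart from the other WT LIC arrays, with Xist at 4.35 against 10.68 and 11.06 and the erythroid gene Car1 at 2.70 against 11.71 and 10.48. The 8 measured markers of the sorted fraction and of stem and multipotent cells summed to 13.42 to 13.48 in LSK cells, 12.27 to 12.81 in WT LICs and 12.66 to 12.96 in Ezh2 KO LICs. All were above background in every group (Kit 9.69 to 11.05) except Mecom, which was at or under the background of 4.01, the highest mean of 27 bacterial control probe sets. The summed log2 level of 9 pre-B cell markers was 12.55 to 12.89 in LSK cells, 10.26 to 12.40 in WT LICs and 13.10 to 13.56 in Ezh2 KO LICs, with Pax5 at background in all. That of 6 markers of antibody-secreting cells was 12.68 to 13.27 in LSK cells, 10.38 to 10.73 in WT LICs and 10.62 to 10.98 in Ezh2 KO LICs. The 7 erythroid markers summed to 11.80 to 11.98, 11.31 to 13.39 and 11.47 to 11.92 in that order of groups, with Hba-a1 at background in all. Summed levels of 8 megakaryocyte markers were 10.47 to 11.22 in LSK cells, 8.45 to 9.38 in WT LICs and 8.85 to 9.05 in Ezh2 KO LICs, with Itgb3 at background, and those of 6 monocyte and macrophage markers 12.23 to 12.46, 10.18 to 11.27 and 10.86 to 10.93. Whether this mix of cells has a part in the values below was not tested.

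Ribosomal protein genes were among the brightest and steadiest signals of these cells in all 3 groups. Of the 44 members, 33 had a mean above 12.5 on the log2 scale, a line drawn after the values were seen. These 33 made up 27.7% of the 119 genes above that line. Their means lay between 12.79 for Rps2 and 13.91 for Rpl41, all at or above the 99.4th percentile of genes, where the highest value of any gene on any array was 13.98. Brightness depends on the probes as well as on the RNA, so the order of members is not an order of RNA amounts.

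Within groups the 33 bright members scattered very little. Their residual SD, the spread of arrays around their group means, had a median of 0.053 and ran from 0.018 for Rpl4 to 0.076 for Rps10 and Rps26. The median was 0.087 for the other 86 genes above the line and 0.259 for all genes. Rpl4, a core protein of the large subunit, read 13.39, 13.40 and 13.43 in LSK cells, 13.41, 13.38 and 13.39 in WT LICs, and 13.33 and 13.36 in Ezh2 KO LICs. Rpl13a, known also for binding inflammatory mRNAs, read 13.43, 13.45 and 13.46, then 13.41, 13.41 and 13.37, then 13.43 and 13.40. The whole range over 8 arrays was 0.10 for Rpl4 and 0.09 for Rpl13a, on a scale where a doubling is 1. How linear the arrays are this near their highest values was not tested.

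**Figure D1:**
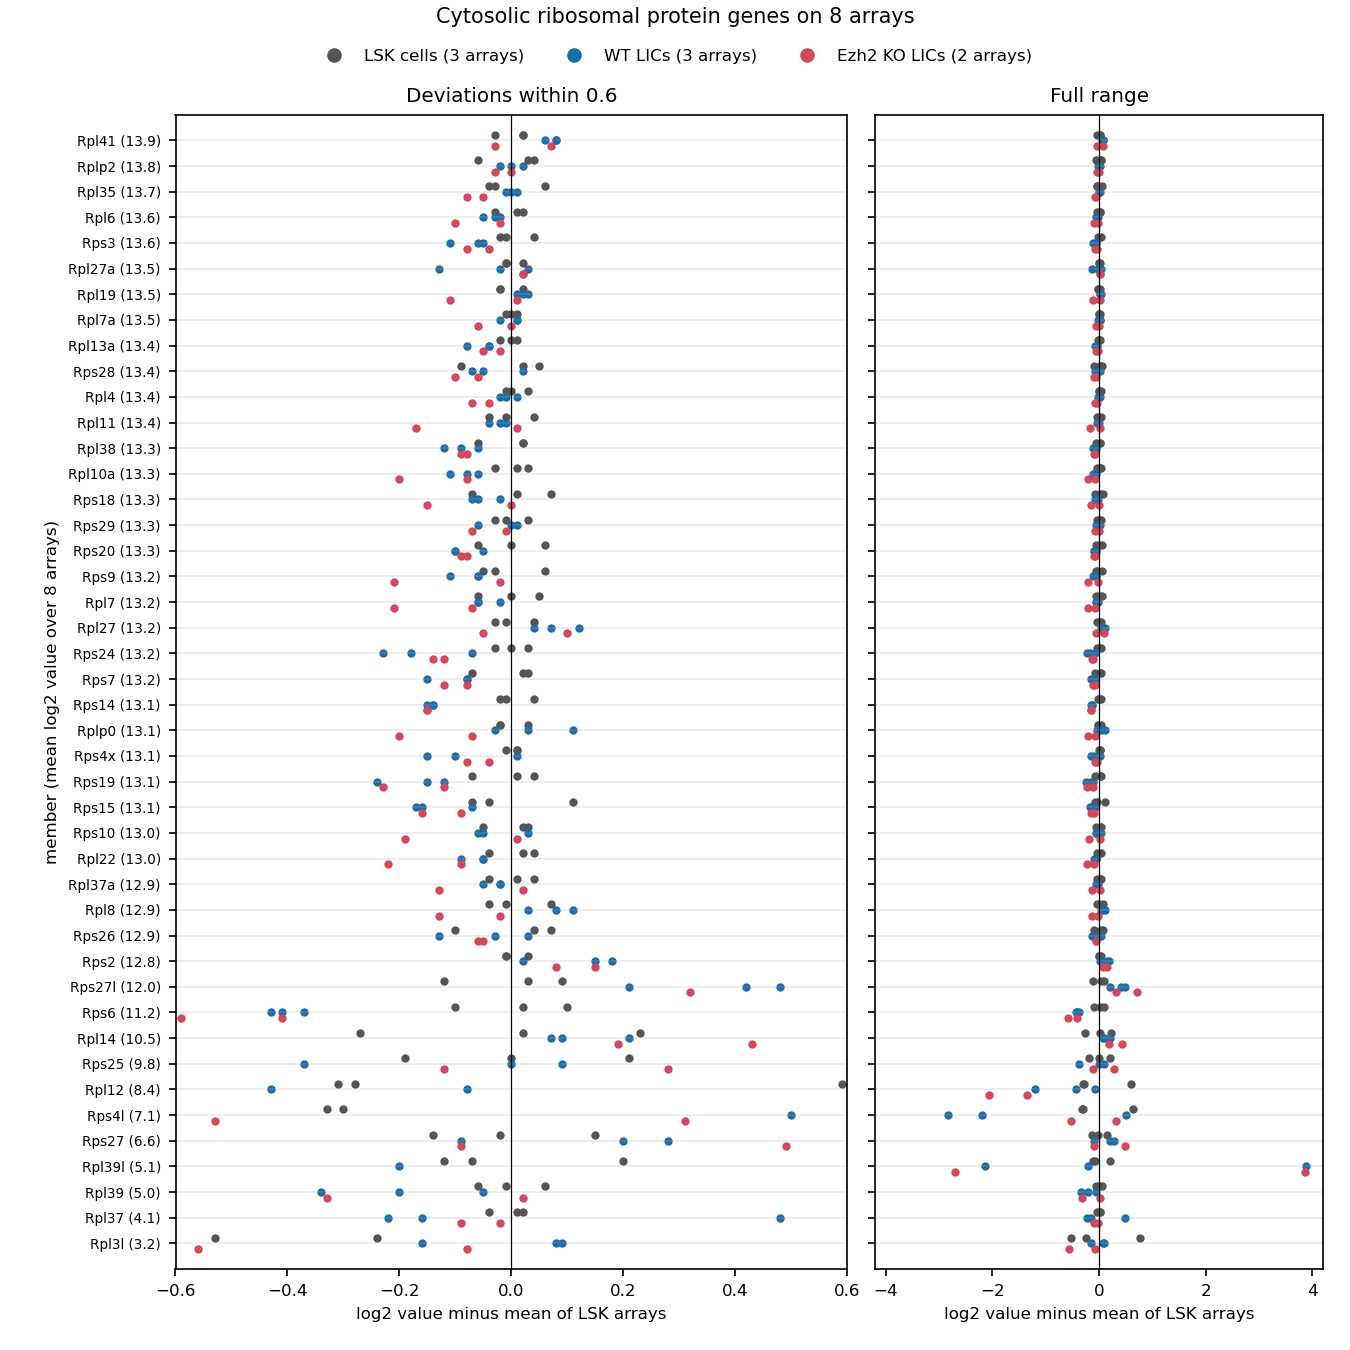
Log2 value minus the mean of the 3 LSK arrays for each of the 44 members (rows, ordered by mean level), with deviations within 0.6 on the left and the full range on the right; each point is an array and colours mark the groups. The 33 members above 12.5 stay within 0.25 of 0 on every array, and the members that scatter widely are the dimmer ones, Rpl12, Rps4l and Rpl39l most of all.

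WT LICs were first compared with normal LSK cells, to see what the leukaemic state changes. No ribosomal protein gene passed the test: 0 of 44 members had an adjusted p under 0.05 (limma, Benjamini-Hochberg over all 12393 genes), where 3.42% of all genes did. At an unadjusted p under 0.05 there was 1 member, Rps6, against 20.6% of all genes. The median difference of the members was -0.04 on the log2 scale and that of all genes 0.02. Of the members, 31 were below 0 and 13 above, and of all 12393 genes 5928 were below and 6465 above. With each array centred on its median the members' median became 0.10 and that of all genes 0.15, so the sign depended on the scaling, while the members stayed 0.05 below the median gene; with cyclic loess they were 0.11 below it. Without WT LIC replicate 3 the median was again -0.04. Of the 44 members 39 lay within 0.25 of 0, all 33 bright ones among them. So did 80 of the 86 other genes above the line and 49.6% of all genes. The 95% intervals of the bright members together ran from -0.45 to 0.39.

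In WT LICs against LSK cells the medians were -0.08 over the 20 small subunit members and -0.01 over the 24 of the large subunit, and in Ezh2 KO LICs against LSK cells -0.08 and -0.06. The difference between subunits was not tested. Rps19, the Diamond-Blackfan gene, read 13.24, 13.21 and 13.13 in LSK cells and 13.08, 12.96 and 13.05 in WT LICs. The groups did not overlap, but the difference of -0.17 (SE 0.12, adjusted p = 0.488, limma) did not pass. Rps14, a small subunit protein needed for red cell formation, read 13.21, 13.27 and 13.22 in LSK cells and 13.09, 13.08 and 13.09 in WT LICs. All WT LIC values were below all LSK values, at a difference of -0.14 (SE 0.11, adjusted p = 0.524, limma). The residual SD of Rps14, 0.021, was well under the prior SD of 0.24, which sets most of this SE. With a trended robust prior the adjusted p was 0.136 for Rps14 and 0.17 for Rps19 (limma), and neither passed.

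Arrays did not overlap between these groups for 14 members (31.8%), against 26.7% of all genes. Of these, 11 of 44 were lower in WT LICs (all genes 13.2%) and 3 higher (6.82%, all genes 13.5%). The lower ones were Rpl10a, Rpl13a, Rpl22, Rpl38, Rps14, Rps19, Rps24, Rps3, Rps6, Rps7 and Rps9; the higher ones were Rpl27, Rpl41 and Rps27l. With fewer arrays more genes separate by construction. Leaving out LSK replicate 3 or WT LIC replicate 3 gave 22 members each, against 34.7% and 40.1% of all genes.

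Rps6, the small subunit protein that S6 kinases phosphorylate, had the smallest p of the members in this comparison. It read 11.37, 11.57 and 11.49 in LSK cells, 11.10, 11.06 and 11.04 in WT LICs, and 11.06 and 10.88 in Ezh2 KO LICs. Every LIC array was below every LSK array. The mean was 11.47 ± 0.10 (SD, n = 3) in LSK cells and 11.07 ± 0.03 (SD, n = 3) in WT LICs, a difference of -0.41 (SE 0.13, adjusted p = 0.133, limma). Against LSK cells the Ezh2 KO LICs differed by -0.50 (SE 0.14, adjusted p = 0.104, limma), which a trended robust prior alone among 18 alternatives called (adjusted p = 0.0429, the others up to 0.563), and from WT LICs by -0.10 (SE 0.14, adjusted p = 0.836, limma). Its residual SD of 0.088 was above that of every bright member.

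Ezh2 KO and WT LICs were then compared, for the effect of losing Ezh2. Again 0 of 44 members passed (limma, adjusted p under 0.05), where 0.637% of all genes did, and 1 member, Rpl12, had an unadjusted p under 0.05, against 11.1% of all genes. The median difference between Ezh2 KO and WT LICs was -0.02 for the members and -0.05 for all genes, and -0.10 and -0.01 with cyclic loess. Without WT LIC replicate 3 it was -0.03 for both. There were 28 members below 0 and 16 above, and of all 12393 genes 7030 were below and 5363 above. Within 0.25 of 0 lay 41 of the 44 members, all 33 bright ones among them. So did 74 of the 86 other genes above the line and 54.3% of all genes. The 95% intervals of the bright members ran together from -0.48 to 0.37. Large subunit members had a median of -0.05 and small subunit members of 0.00.

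Arrays did not overlap for 6 members (13.6%, all genes 29.8%), and in all 6 the Ezh2 KO LICs were lower (all genes, lower, 16.6%): Rpl12, Rpl35, Rpl4, Rpl7, Rpl8 and Rplp0. Rplp0 anchors the stalk that recruits elongation factors. It read 13.23, 13.15 and 13.09 in WT LICs and 13.05 and 12.92 in Ezh2 KO LICs, with LSK cells at 13.10, 13.15 and 13.10. The difference of -0.17 (SE 0.13, adjusted p = 0.677, limma) did not pass. Its partner Rplp2, which forms the stalk's arms with Rplp1, read 13.85, 13.83 and 13.87 in WT LICs and 13.85 and 13.82 in Ezh2 KO LICs, and its values overlapped.

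Of the Ezh2 KO arrays, replicate 2 held more of the lowest values. Ezh2 KO LIC replicate 2 held the lowest of the 8 values for 21 of 44 members and for 18 of the 33 bright ones (54.5%), against 31.4% of the other genes above the line and 15.6% of all genes. Relative to the 8-array mean, bright members had a median of -0.06 on that array and -0.01 on replicate 1. The medians of all genes were -0.05 and -0.02, and those of the other genes above the line 0.00 and 0.04. Without replicate 2, the median difference from WT LICs was 0.01 and 14 of the 33 bright members were below 0; without replicate 1 they were -0.06 and 28. These fits leave 1 Ezh2 KO array, which is assumed to vary like the other groups. The count of members without overlap was 24 without replicate 1 (all genes 59.3%) and 20 without replicate 2 (50.8%). Without WT LIC replicates 1, 2 and 3 it was 10, 11 and 18, against 40.1%, 40.7% and 47.3% of all genes. Of 10 granulocyte markers, all above background, every one but Ltf also read lower on Ezh2 KO LIC replicate 2 than on replicate 1, among them Elane (7.33 against 9.48). Their summed level was 13.75 to 13.89 in LSK cells, 14.18 to 14.40 in WT LICs and 13.29 and 14.17 in Ezh2 KO LICs, and their part in the result was not tested.

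**Figure D2:**
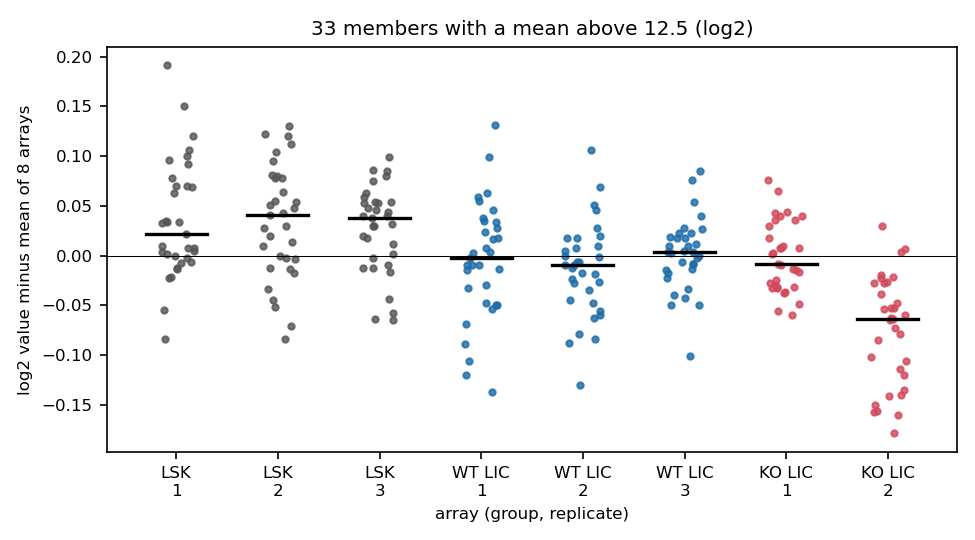
Log2 value minus the mean of the 8 arrays for the 33 members with a mean above 12.5 (points), by array, with the median as a bar. The LSK arrays have medians of 0.02 to 0.04, the WT LIC arrays lie near 0, and Ezh2 KO LIC replicate 2 is lowest at -0.06, where all genes together had a median of -0.05.

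The third comparison set Ezh2 KO LICs against LSK cells and shares its arrays with the others. Once more 0 of 44 members passed (limma), against 3.47% of all genes; Rpl12, Rps27l and Rps6 had an unadjusted p under 0.05, as did 19.2% of all genes. The members' median was -0.07 and that of all genes -0.02, with 35 members and 6544 of all 12393 genes below 0. Median centring turned the members' median to 0.07, with all genes at 0.11, and cyclic loess gave -0.22 with all genes at 0.01. Bright members had 95% intervals from -0.48 to 0.42, and all of them lay within 0.25 of 0. Of all 44 members 38 did, against 65 of the 86 other genes above the line and 47.2% of all genes. Arrays did not overlap for 20 members (45.5%, all genes 38.7%). Of these 18 were lower (40.9%, all genes 20.5%) and 2, Rps2 and Rps27l, higher (4.55%, all genes 18.2%). The 20 became 36 without Ezh2 KO LIC replicate 1 (81.8%, all genes 61.2%) and 35 with cyclic loess (79.5%, all genes 39.2%).

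**Figure D3:**
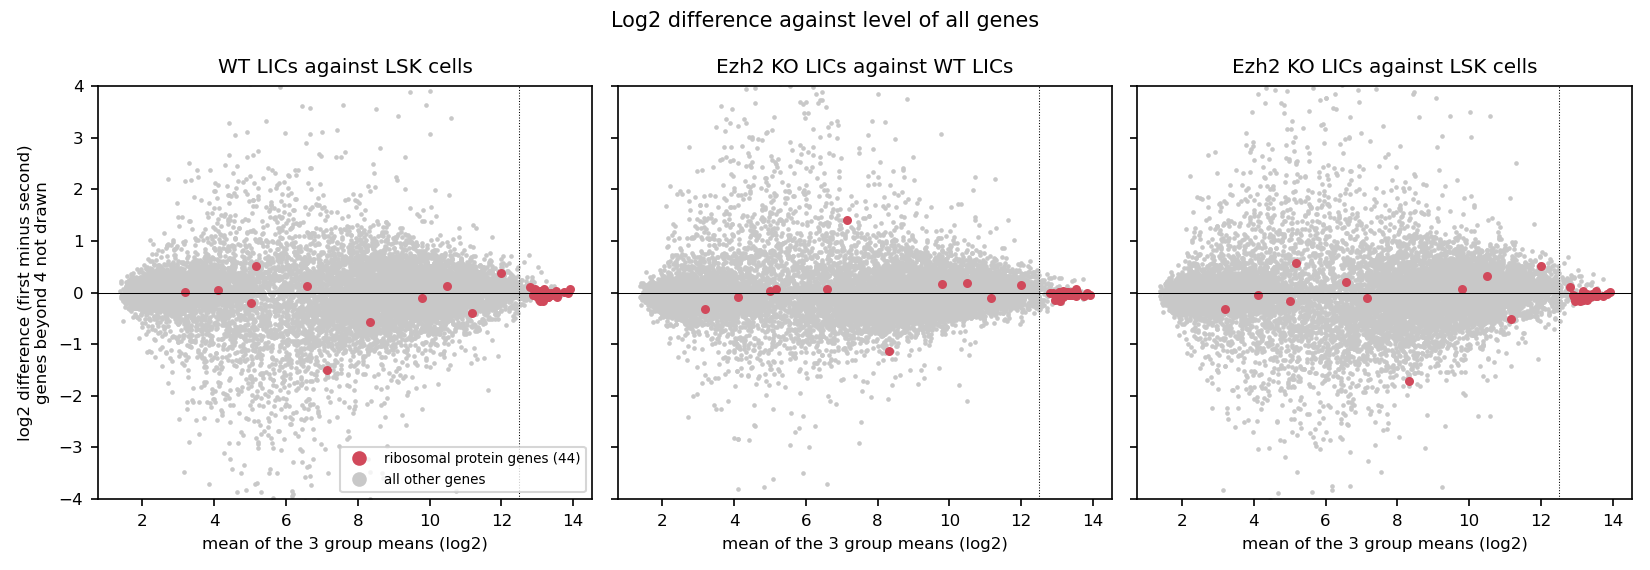
Log2 difference (vertical axis) against the mean of the 3 group means (log2) for all genes (grey) and the 44 ribosomal protein genes (red) in each comparison; the dotted line is at 12.5. The bright members form a flat cluster at the right edge within 0.25 of 0, and the few members off the line lie at lower levels.

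The 11 members under the line held nearly all of the larger differences. They were Rpl12, Rpl14, Rpl37, Rpl39, Rpl39l, Rpl3l, Rps25, Rps27, Rps27l, Rps4l and Rps6, and 6 of them lay under the median gene, at 7.16. Several are standard parts of the ribosome, Rpl37, Rpl39 and Rps27 among them, though Rpl39 and Rps27 have paralogs here. Brightness depends on the probes too, so a low reading of a probe set cannot be taken as a low level of the mRNA.

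Rps27l, a paralog of Rps27 that p53 is known to induce, was brighter in both LIC groups than in LSK cells. It read 11.80, 11.74 and 11.59 in LSK cells, 12.19, 12.13 and 11.92 in WT LICs, and 12.42 and 12.03 in Ezh2 KO LICs. No LSK array reached any LIC array. The difference was 0.37 (SE 0.16, adjusted p = 0.246, limma) for WT LICs and 0.52 (SE 0.18, adjusted p = 0.163, limma) for Ezh2 KO LICs, and neither passed. Its other probe sets gave 0.37 and 0.47 for WT LICs and 0.51 and 0.73 for Ezh2 KO LICs, without overlap with LSK cells in any case. Probe sets of 1 gene share its transcripts and arrays and are not independent. Between Ezh2 KO and WT LICs the difference was 0.15 (95% interval -0.26 to 0.57) and the arrays overlapped.

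The start region of Rps27 holds CTTTC at 2 places, and that at the first start of Rps27l holds none. Rps27 read 6.62, 6.45 and 6.33 in LSK cells, 6.38, 6.75 and 6.67 in WT LICs, and 6.96 and 6.38 in Ezh2 KO LICs. These values overlapped in all comparisons, and the largest difference was 0.20 (SE 0.22, adjusted p = 0.675, limma), between Ezh2 KO LICs and LSK cells.

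Rpl12, a large subunit protein at the base of the stalk, had the largest negative difference of any member between Ezh2 KO LICs and LSK cells. It read 8.78, 9.68 and 8.81 in LSK cells, 9.01, 8.66 and 7.89 in WT LICs, and 7.74 and 7.03 in Ezh2 KO LICs. Both Ezh2 KO values were below all others. The difference was -1.13 from WT LICs (SE 0.42, adjusted p = 0.388, limma) and -1.70 from LSK cells (SE 0.42, adjusted p = 0.0742, limma). The latter passed at adjusted p = 0.0467 when WT LIC replicate 3 was left out of the fit and in no other of its 18 alternatives, which ranged up to 0.314. Rpl12 is reported by 1 probe set, and its neighbours on the stalk, Rplp0 and Rplp2, differed by -0.13 and -0.02 in the same comparison.

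Rps4l and Rpl39l had a wide spread of arrays around their group means. Rps4l, an autosomal relative of X-linked Rps4x, read 7.36, 8.32 and 7.39 in LSK cells, 5.49, 4.86 and 8.19 in WT LICs, and 7.16 and 8.0 in Ezh2 KO LICs. WT LIC replicate 3 lay with the other groups, and without it the difference between WT LICs and LSK cells went from -1.51 (adjusted p = 0.348, limma) to -2.51 (adjusted p = 0.0224, limma; the other alternatives ranged up to 0.652). Rps4x itself read 13.12 to 13.14, 12.98 to 13.14, and 13.05 and 13.09, and differed by at most 0.08 in size between groups. Rpl39l, a paralog of Rpl39 best known from male germ cells, read 4.73, 4.68 and 5.0 in LSK cells, 4.60, 8.69 and 2.66 in WT LICs, and 2.09 and 8.66 in Ezh2 KO LICs. WT LIC replicate 2 and Ezh2 KO LIC replicate 2 were high and all others low, so the residual SD, 2.851, was above that of nearly every gene measured. Rpl39, also X-linked, stayed between 4.79 and 5.19. Rpl3l read 2.74 to 4.07 over all arrays, with every group mean under the background level.

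Of the remaining named members, Rpl11, the MDM2-binding protein, read 13.44, 13.39 and 13.36 in LSK cells, 13.36, 13.39 and 13.38 in WT LICs, and 13.41 and 13.23 in Ezh2 KO LICs. Its groups overlapped in all comparisons, with 95% intervals of -0.31 to 0.26, -0.37 to 0.26 and -0.39 to 0.24. Rps2, a small subunit protein near the mRNA entry channel, read 12.71, 12.71 and 12.75 in LSK cells, 12.74, 12.90 and 12.87 in WT LICs, and 12.87 and 12.80 in Ezh2 KO LICs. It was 0.11 higher in each LIC group (adjusted p = 0.652 and 0.713, limma). Rpl14, Rps25 and Rpl8 differed by at most 0.31, 0.17 and 0.14 in size, none past the test.

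**Figure D4:**
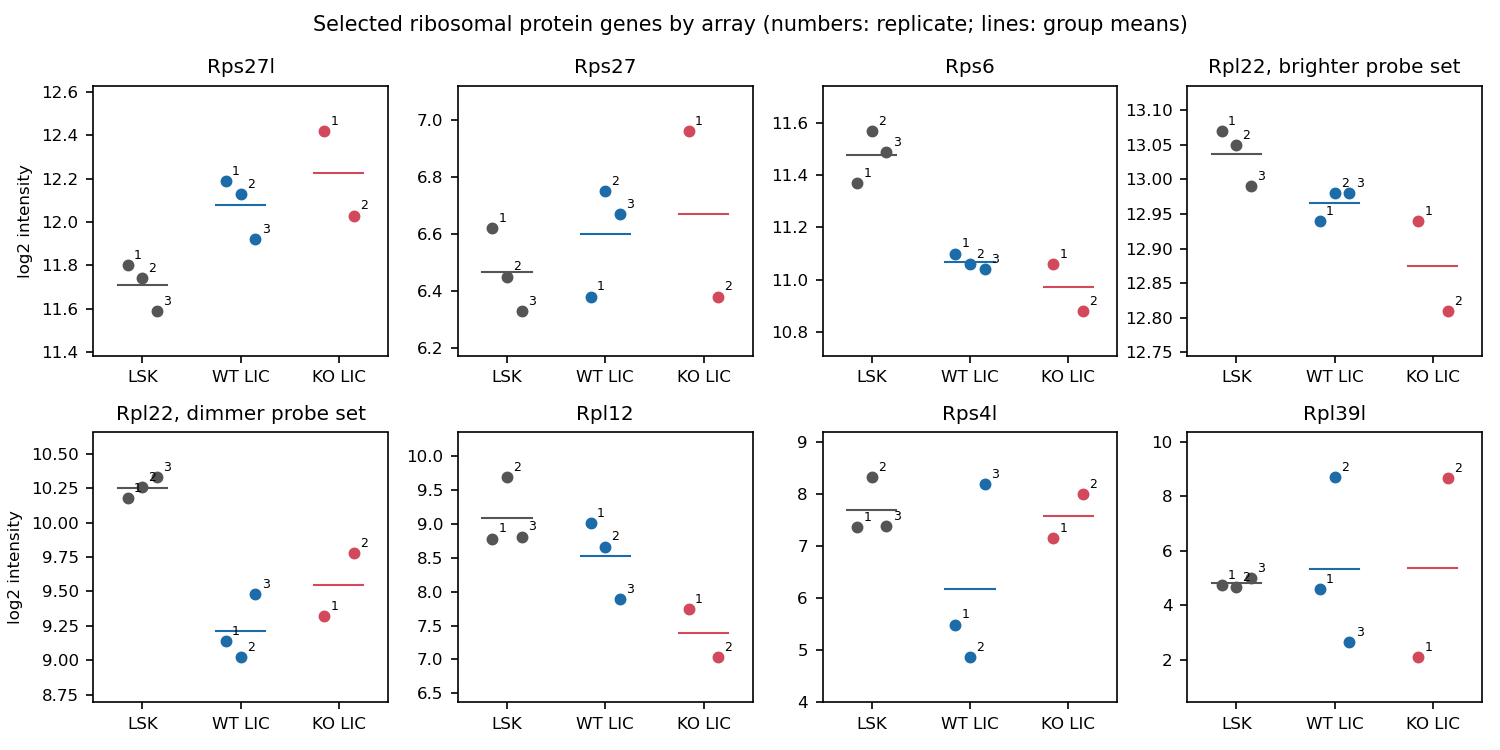
Log2 intensity by group for Rps27l, Rps27, Rps6, both Rpl22 probe sets, Rpl12, Rps4l and Rpl39l; points are arrays with their replicate number, bars are group means, and each panel has its own vertical scale. Rps27l and Rps6 separate LSK cells from LICs, and Rps4l and Rpl39l turn on single arrays.

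Some genes gave different answers by probe set. The 44 members had 94 probe sets. Of the 50 that were not the brightest, 38, 36 and 36 lay within 0.25 of 0 in the 3 comparisons. The 50 went both ways, from -1.31 to 0.78, from -0.61 to 0.82 and from -1.42 to 0.89. The lowest were of Rps24, Rpl41 and Rps24, and the highest of Rpl35, Rps10 and Rpl37a. With every probe set tested on its own, 1 of the 94 passed, for WT LICs against LSK cells, where 2.68% of 20380 probe sets did; in the other comparisons 0 passed, against 0.51% and 2.86% (limma). It was the dimmer probe set of Rpl22, a large subunit protein deleted in some leukaemias and used in T cell development. It read 10.18, 10.26 and 10.33 in LSK cells, 9.14, 9.02 and 9.48 in WT LICs, and 9.32 and 9.78 in Ezh2 KO LICs. It was 1.04 lower in WT LICs (the difference was -1.04, SE 0.19, adjusted p = 0.0371, limma over all probe sets), and no LIC array reached an LSK array. The brighter Rpl22 probe set read 13.07, 13.05 and 12.99, then 12.94, 12.98 and 12.98, then 12.94 and 12.81, a difference of -0.07 (adjusted p = 0.80, limma).

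Rps24, a small subunit protein also mutated in Diamond-Blackfan anaemia and known for alternative last exons, had the same kind of split. A dimmer probe set read 8.43, 8.30 and 8.60 in LSK cells, 6.86, 6.69 and 7.87 in WT LICs, and 7.24 and 6.81 in Ezh2 KO LICs, differences of -1.31 (adjusted p = 0.078, limma over all probe sets) and -1.42 (adjusted p = 0.0831) from LSK cells. The brightest one differed by -0.16 and -0.13. Which transcripts each probe set reads was not examined. Of the 94 probe sets, 40 carry the suffix by which the manufacturer marks probes that can match other transcripts, and for 12 members such a probe set was the brightest. Another 2 carry the suffix for probes shared by several transcripts: the Rpl22 probe set that passed, and the brightest one of Rps9. Ribosomal protein genes have many processed pseudogenes, so these readings are uncertain.

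The rest of the translation machinery was taken from lists of known genes. Of 5 measured cytosolic ribosome components outside the naming rule, none passed in any comparison, and their medians were -0.06, -0.02 and -0.08 (all genes 0.02, -0.05 and -0.02). The laminin receptor protein Rpsa read 13.79 in WT LICs against 13.67 with Ezh2 lost, and Rpl22l1, the paralog of Rpl22, at 12.43 in LSK cells and 12.16 in WT LICs. Of 32 translation factors, none passed, with medians of 0.04, -0.04 and -0.03. Eif4a2, an RNA helicase of initiation, was nearest in WT LICs at -0.66 (adjusted p = 0.0573, limma), and the cap-binding Eif4e in Ezh2 KO LICs against LSK cells at 0.73 (adjusted p = 0.057, limma). Of 12 genes of RNA polymerase I, which makes ribosomal RNA, none passed; Polr1a, its largest subunit, differed by 0.45 in WT LICs and by -0.45 from there in Ezh2 KO LICs.

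Ribosome assembly factors and mitochondrial ribosomal proteins had other medians than the cytosolic proteins. In WT LICs against LSK cells, 47 of 50 measured assembly factors were above 0, with a median of 0.33, and 69 of 74 mitochondrial ribosomal proteins, with a median of 0.30. Of all 12393 genes, 6465 were above 0 there. The medians relative to all genes were 0.29 to 0.31 and 0.27 to 0.30 under the scalings tried. In each list 1 gene passed, higher, and none lower (1 of 50 and 1 of 74, where 3.42% of all genes passed in either direction): Utp18, a factor of small subunit assembly, rose by 1.33 (SE 0.28, adjusted p = 0.0493, limma), a call lost in 9 of 18 alternatives (adjusted p up to 0.134), and Mrpl20 rose by 1.03 (SE 0.20, adjusted p = 0.0385, limma), lost in 7 of 18 (up to 0.123). Most of these losses came with 1 array left out, including each WT LIC array in turn. In Ezh2 KO against WT LICs the medians were -0.23 and -0.19, with 9 and 10 genes above 0 (5363 of all 12393 genes) and none past the test. Without Ezh2 KO LIC replicate 2 they were -0.10 and -0.04, and without replicate 1 -0.33 and -0.37. Against LSK cells the Ezh2 KO medians were 0.16 and 0.11; without replicate 1 they were 0.05 and -0.05, and without replicate 2 they were 0.23 and 0.29. These lists share arrays with the members, and the difference between lists was not tested.

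**Figure D5:**
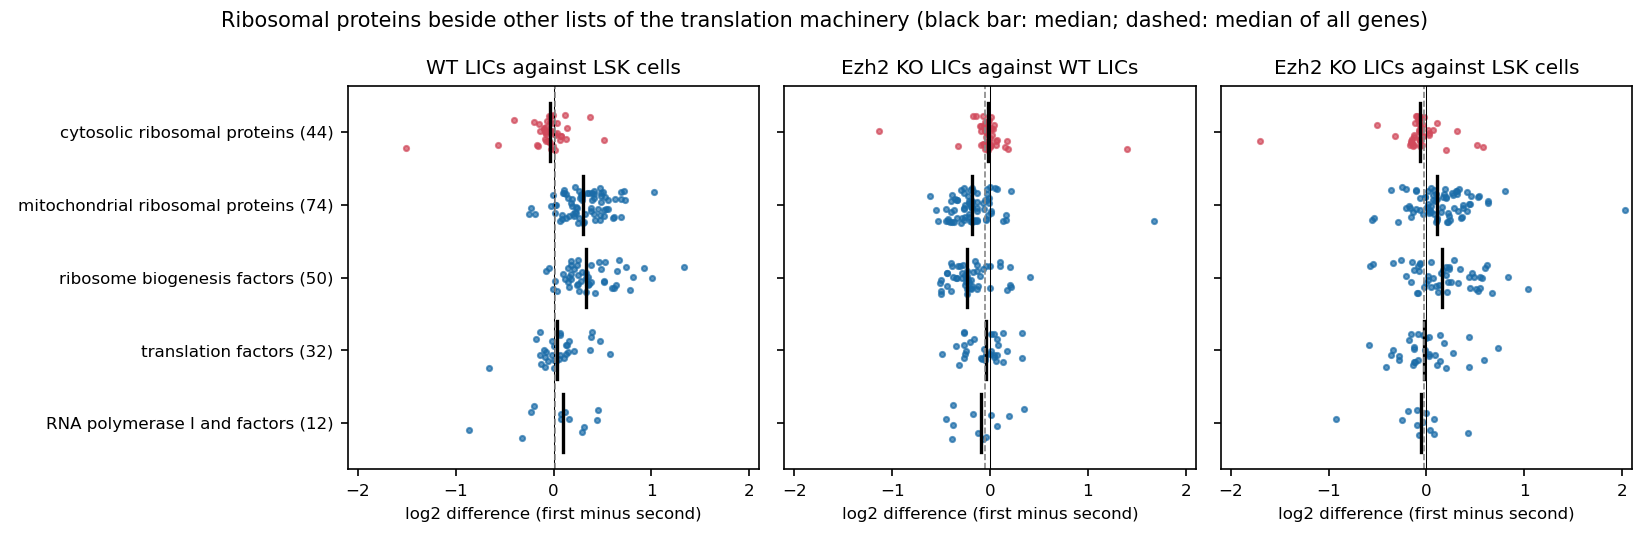
Log2 difference of each gene (points) in 5 lists of the translation machinery for the 3 comparisons, with list medians as black bars and the median of all genes as a dashed line. In WT LICs against LSK cells the mitochondrial ribosomal proteins and assembly factors have medians of 0.30 and 0.33 and the cytosolic ribosomal proteins -0.04.

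Among 16 genes of mTOR and MYC control of ribosomal proteins, Tsc1, an inhibitor of mTOR complex 1, fell by 0.86 in WT LICs (SE 0.13, adjusted p = 0.0169, limma) and by 0.71 in Ezh2 KO LICs (SE 0.14, adjusted p = 0.042, limma) relative to LSK cells. These calls were lost in 7 and 14 of 18 alternatives, with adjusted p up to 0.903 and 0.762 where all probe sets of the gene were averaged. Myc differed by -0.46 between Ezh2 KO LICs (10.19) and WT LICs (10.65) and did not pass (adjusted p = 0.418, limma).

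Another list held 10 measured genes of p53 signalling, most of them targets of p53 and not steps from ribosomal proteins to p53. Whether ribosomal proteins had a part in their values was not tested. In Ezh2 KO LICs against LSK cells 4 of the 10 passed, all higher, and 6 did not. Of all genes, 3.47% passed there in either direction. The cell cycle inhibitor Cdkn1a rose by 3.85 (SE 0.35, adjusted p = 0.00317, limma), the RNA-binding p53 target Zmat3 by 3.88 (SE 0.38, adjusted p = 0.00453), the AKT inhibitor Phlda3 by 2.87 (SE 0.34, adjusted p = 0.00937, but 0.0565 without Ezh2 KO LIC replicate 1) and cyclin G1 (Ccng1) by 0.81 (SE 0.17, adjusted p = 0.0486, lost in 11 of 18 alternatives). Against WT LICs 3 passed (all genes 0.637%), all higher: Zmat3 (2.98, adjusted p = 0.0217, limma), Phlda3 (2.51, adjusted p = 0.0279) and Trp53inp1 (1.71, adjusted p = 0.021). These calls were lost in 5, 6 and 7 of 18 alternatives, with adjusted p up to 0.127, 0.121 and 0.223, and each was lost without either Ezh2 KO array. In WT LICs against LSK cells Cdkn1a rose by 2.49 (adjusted p = 0.00979, limma) and Trp53inp1 fell by 1.77 (adjusted p = 0.00571, limma), both kept in all 18. In that comparison 3.42% of all genes passed. The summed level of the 9 pre-B cell markers given above was also highest in Ezh2 KO LICs, and its part in these values was not tested. Single markers went both ways against LSK cells. Igll1 read 11.36 and 10.31 in Ezh2 KO LICs against 3.82 to 5.11, and Dntt read 11.98 and 11.92 against 12.31 to 12.63.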

How the data were processed

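The authors deposited linear intensity values for 22690 probe sets on 8 arrays (1.94 to 19343.1). Per the submitters' processing notes they used RMA, with no version; no later step is recorded. Array medians over all probe sets were 6.42 to 6.57 (log2). Over genes they were 7.24 to 7.32 on the LSK arrays and 7.11 to 7.21 on the LIC arrays, so the scales were close but not equal. Log2 was taken with no pseudocount, although log2 values had been assumed when the tests were planned. After removal of 64 control probe sets, 20380 probe sets with 1 symbol in the platform annotation gave 12393 genes by brightest mean; those listing several symbols (691) or none (1555) were left out, and 20351 matched RefSeq.

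All 3 groups were fitted together in limma 3.58.1 (R 4.3.3; lmFit, eBayes), 2-sided, with 5 residual degrees of freedom and Benjamini-Hochberg adjustment over all genes; calls needed an adjusted p under 0.05. The number of arrays limits the precision. Exact permutation of single genes cannot go below 0.1 here. The code was tested on simulated data. Plots used matplotlib 3.10.9.

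Members and lists were chosen with earlier results of these data known. Named members were the paralogs, stalk, MDM2-binding and blood disease genes, any member called, and the 5 most positive and 5 most negative per comparison; from other lists, up to 4 called genes or otherwise up to 2 by smallest p. Rpl4, Rpl13a, Rps24 and Rpl35 were named after their values were seen. Alternatives covered scaling, probe set choice, a dim-gene filter, priors, weights, X and Y genes, and each array left out.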

Additional observations from a re-analysis of the deposited data

How the results depend on the processing

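Of 921 recomputed values for 52 named member differences, 858 kept their direction and side of the threshold, 60 changed sign without being called and 3 became called. None of the 52 was called in the main fit, so no call could be lost or reversed. The count of members called was 0 in every comparison except for 1 in WT LICs against LSK cells with all probe sets tested (Rpl22) or without WT LIC replicate 3 (Rps4l), and 1 in Ezh2 KO LICs against LSK cells with a trended robust prior (Rps6) or without WT LIC replicate 3 (Rpl12); over single arrays left out it ran from 0 to 1 in both, and was 0 throughout for Ezh2 KO against WT LICs. With the trended prior the median SE of bright members was 0.06 in place of 0.12 to 0.13, and 5, 2 and 7 of 44 members had an unadjusted p under 0.05, against 21.3%, 11.7% and 20.1% of all genes.

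The members' median went from -0.04 to -0.11 with cyclic loess and 0.10 with median centring in WT LICs against LSK cells, from -0.02 to -0.10 with cyclic loess in Ezh2 KO against WT LICs, and from -0.07 to -0.22 and 0.07 in Ezh2 KO LICs against LSK cells. Leaving out single arrays gave -0.05 to -0.04, -0.06 to 0.01 and -0.10 to -0.04. Members without overlap numbered 14, 6 and 20; with all probe sets as separate features 27, 15 and 44 of 94 (25.6%, 29.1% and 38.3% of all probe sets). With cyclic loess they were 25 and 35 in the last 2 comparisons (29.6% and 39.2% of all genes). With single arrays left out they were 14 to 22, 6 to 24 and 20 to 36, where all genes ran from 26.7% to 40.1%, 29.8% to 59.3% and 38.7% to 61.2%. The causes were not tested.

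Deviations of arrays with the same replicate number correlated at -0.05 to 0.14, and those with different numbers at -0.14 to 0.10. With 2 or 3 arrays a group the deviations within a group are tied to each other. Whether the numbers pair the samples therefore cannot be told from these values. With the replicate number as a block, 0 members were called in each comparison, the medians were -0.04, -0.03 and -0.06, and 252, 36 and 147 of all genes were called in place of 424, 79 and 430; no member's call changed. With few arrays and very low spread, the prior SD of 0.24 sets most of the error of bright members, whose own median spread was 0.053.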
